A study of Rattus norvegicus with 10 samples.

Results

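Medium spiny neurons, the principal output neurons of the striatum, are divided by the dopamine receptor they carry into a D1 type and a D2 type, and 9 genes known for their expression in these neurons were examined in the arcuate nucleus (ARC) of the hypothalamus. The rule named *Drd1*, *Drd2*, *Adora2a*, *Ppp1r1b*, *Rgs9*, *Pde10a*, *Gpr6*, *Adcy5* and *Rasd2*, and all 9 had a row among the 12828 genes of the deposited table. RNA came from the ARC of 10 Wistar rat dams taken at parturition, 5 of them fed 5X-FA, folic acid at 5 times the recommended amount, and 5 fed 5X-MTHF, the methylated folate [6S]-5-methyltetrahydrofolic acid at an equimolar 5X amount. All the dams were in their first pregnancy, ate the same AIN-93G base diet and received the folate treatment during pregnancy only. The ARC was cut free hand from frozen coronal slices with the third ventricle as the landmark.

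The list was chosen from measured values of these libraries, with the fold changes of the deposited diet comparison known. That comparison was not used here and its values are not given, so nothing below is support for a difference. The measure that was used is an average log2 CPM over all libraries, the base-2 logarithm of read counts scaled to library size (CPM, a share of all reads counted on genes), with 1 value for each gene. It carries no diet, no spread between dams and no number of replicates. Levels in 5X-FA and 5X-MTHF dams were therefore not compared, and how deeply each dam's library was sequenced is not known from it. In bulk tissue a small number of cells of a type and a small amount of RNA per cell cannot be told apart.

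Dopamine acts on both types of medium spiny neuron through cyclic AMP (cAMP). The D1 receptor couples to a stimulatory G protein and raises cAMP, whereas the D2 receptor couples to an inhibitory one and lowers it, and the adenosine receptor encoded by *Adora2a* opposes the D2 receptor in the same cells. In the hypothalamus dopamine has another well-known role: dopamine neurons of the ARC restrain the release of prolactin from the pituitary, and D2 receptors take part in that control. *Drd2* at least therefore has a role outside the striatum. Reads of the 9 genes in an ARC dissection carry no label of the cell they came from.

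All 9 genes were protein-coding and lay on 7 chromosomes of Rnor_6.0, the assembly to which the authors aligned the reads. The receptor genes were *Drd1* on chromosome 17 from 11101306 to 11103541, *Drd2* on chromosome 8 from 53678777 to 53743642, *Adora2a* on chromosome 20 from 14265252 to 14282873 and *Gpr6* on chromosome 20 from 45813169 to 45815940. The other 5, called effector genes here, encode signaling proteins that are not receptors. *Adcy5* lay on chromosome 11 from 68695839 to 68842320, *Pde10a* on chromosome 1 from 52360296 to 52544450 and *Ppp1r1b* on chromosome 10 from 86303727 to 86312762. *Rgs9* lay on chromosome 10 from 97509971 to 97582188 and *Rasd2* on chromosome 19 from 14653198 to 14663914. The spans of the 9 genes ran from 2.24 kb (*Drd1*) to 184 kb (*Pde10a*). The pairs that shared a chromosome were far apart, with 31.5 Mb between *Adora2a* and *Gpr6* and 11.2 Mb between *Ppp1r1b* and *Rgs9*.

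No other gene of the table overlapped the span of any of the 9 genes on either strand. The closest neighbour was *Stard3*, 0.621 kb from *Ppp1r1b*. The unnamed protein-coding gene AABR07030647.1 lay 4.47 kb from *Rgs9*, and *Specc1l* lay 4.58 kb from *Adora2a*. *Sfxn1*, another gene listed as a D1-type marker, lay 19.3 kb from *Drd1*. These distances are to genes of the table only, which had passed the authors' filter on low counts. RefSeq held 17 transcript models for *Pde10a*, 5 for *Adora2a* and 1 each for *Rgs9*, *Gpr6* and *Rasd2*. Reads were counted per gene on Ensembl models instead, so the values do not separate transcripts, and which RefSeq transcripts they cover was not checked.

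Reference sequence before the annotated starts is shown for 4 of the genes, picked for their motif matches. That of *Gpr6* holds the full element bound by CREB, a transcription factor activated through cAMP. That of the outer start of *Pde10a* holds only the half-site TGACG of this element, and the other 2 hold GC boxes instead. The set of RefSeq start windows used here, on the GRCr8 assembly, held 8 for 7 of the 9 genes, 2 of them for *Pde10a*. It held none for *Adora2a* or *Ppp1r1b*, although RefSeq has transcript models for both. In 6 of the 8 windows the start was the outer end of the gene. The exceptions were the window of *Drd1* and the second window of *Pde10a*, which began inside the gene's span. Each sequence below is the 250 bases before the start, read 5′ to 3′ along the gene, and capitals mark every match on either strand to the half-site TGACG, to the GC box GGGCGG, to the CCAAT box or to the TATAA box.
Gpr6 (GRCr8 chr20:46075252-46075501, minus strand): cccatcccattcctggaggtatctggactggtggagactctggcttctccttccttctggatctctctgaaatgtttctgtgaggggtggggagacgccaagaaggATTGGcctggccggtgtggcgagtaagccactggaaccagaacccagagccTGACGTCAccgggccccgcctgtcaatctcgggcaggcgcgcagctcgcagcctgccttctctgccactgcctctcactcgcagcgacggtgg
Pde10a, outer start (GRCr8 chr1:54765669-54765918, minus strand): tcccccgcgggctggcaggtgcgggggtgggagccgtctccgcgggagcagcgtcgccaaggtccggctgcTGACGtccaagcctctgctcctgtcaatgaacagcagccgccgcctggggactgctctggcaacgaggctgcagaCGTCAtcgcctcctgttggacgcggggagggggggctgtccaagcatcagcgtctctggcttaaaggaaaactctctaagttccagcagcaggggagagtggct
Drd2 (GRCr8 chr8:58605153-58605402, plus strand): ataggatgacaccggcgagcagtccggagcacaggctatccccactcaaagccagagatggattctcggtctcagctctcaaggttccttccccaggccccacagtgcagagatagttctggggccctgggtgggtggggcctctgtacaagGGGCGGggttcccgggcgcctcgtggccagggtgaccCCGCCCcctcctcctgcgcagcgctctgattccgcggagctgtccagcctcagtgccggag
Rasd2 (GRCr8 chr19:13599778-13600027, plus strand): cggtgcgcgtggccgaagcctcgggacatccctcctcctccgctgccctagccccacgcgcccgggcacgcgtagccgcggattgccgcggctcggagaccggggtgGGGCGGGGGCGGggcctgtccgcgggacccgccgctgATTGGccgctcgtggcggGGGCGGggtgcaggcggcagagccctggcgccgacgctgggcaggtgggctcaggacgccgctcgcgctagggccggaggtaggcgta

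The full cAMP response element, TGACGTCA, was found in 1 of the 8 windows, that of *Gpr6*, from base -93 to base -86 counted from the start. It was present in 1.59% of all 33469 rat start windows of the same length. Its half-site TGACG, which the full element also contains, was found in 2 of 8 windows, those of *Gpr6* and of the outer start of *Pde10a*, against 18.2% of all windows. In *Pde10a* the matches began at bases -179 and -104 and lay on opposite strands. The GC box GGGCGG was present in 5 of 8 windows (*Drd2*, *Adcy5*, *Rgs9*, *Rasd2* and the inner start of *Pde10a*) and in 30.5% of all windows. *Adcy5* and *Rasd2* held 3 GC boxes each and *Drd2* held 2. The CCAAT box was present in 3 of 8 windows (*Gpr6*, *Rgs9* and *Rasd2*) against 34% of all, and TATAA was present in 0 of 8 against 24% of all. The window of *Drd1* held none of these letters. A match is a run of letters and not a shown binding site, and the 8 windows were too few for a share to be read against the background.

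**Figure D1:**
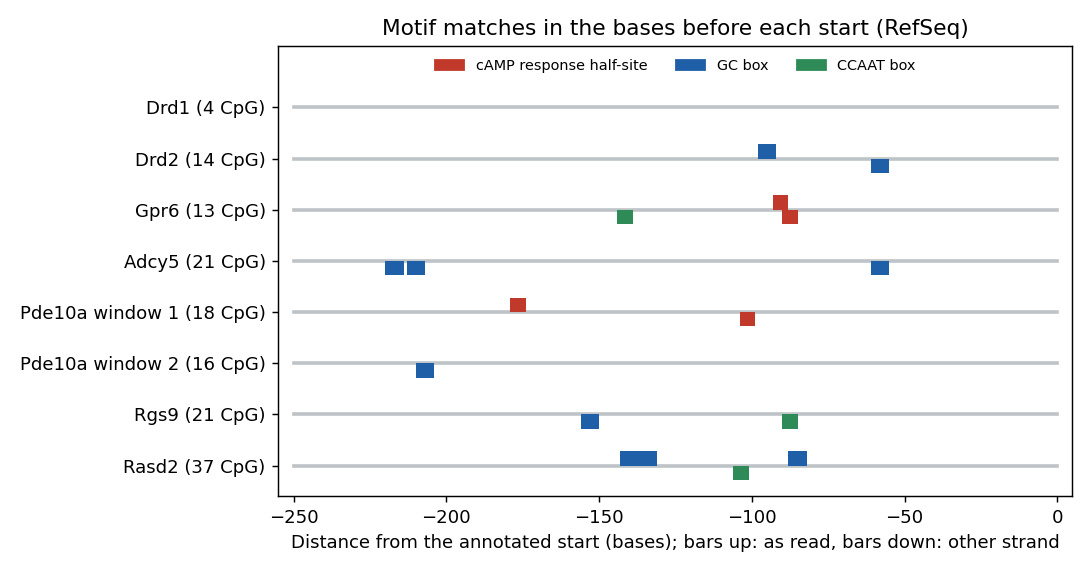
Motif matches in the 250 bases before each start, with the distance from the start in bases on the x axis, 1 line for each of the 8 RefSeq windows and bars above or below the line for either strand. Red bars mark the half-site TGACG, seen in *Gpr6* and at the outer start of *Pde10a* only, blue bars the GC box and green bars the CCAAT box, and the number of CpG dinucleotides stands beside each name.

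The same windows differed in base composition. That of *Rasd2* was 78.4% G and C and held 37 CpG dinucleotides, more than or as many as 98.3% of all rat windows. Those of *Adcy5* and *Rgs9* held 21 CpG each, the outer and inner starts of *Pde10a* 18 and 16, *Drd2* 14 and *Gpr6* 13. *Drd1* held 4 CpG at a G and C content of 51.2%, and it was the only one of the 8 below the median of 5 CpG over all windows. Its window lies inside the span of the gene, so this may not be the composition at the outer start.

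Read counts on the 9 genes spanned a wide range. Their average log2 CPM ran from 2.63 (*Gpr6*) to 7.64 (*Adcy5*), with a median of 5.37 against a median of 4.94 over all genes of the table. On the linear scale this is 6.19 to 199.8 CPM, a 32.3-fold range. Together they took 630.5 CPM, or 0.0629% of all reads counted. These are shares of reads and are not divided by transcript length, so a larger value does not by itself mean more transcripts, and without a spread between dams it could not be said which neighbours in the order differ.

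Of the 4 receptor genes, 1 was above the median gene, and they summed to 83.7 CPM. *Drd1*, the D1 dopamine receptor, had an average log2 CPM of 5.01, or 32.3 CPM, and drew at least as many reads as 51.3% of the genes. *Drd2*, the D2 dopamine receptor, had 4.70 (26.0 CPM), at percentile 45.0. The reads of the pair were in a ratio of 1.24 for *Drd1* to *Drd2*, a difference of 0.31 on the log2 scale. *Adora2a*, the adenosine receptor of D2-type neurons, had an average log2 CPM of 4.26 (19.2 CPM), at percentile 36.1. *Gpr6*, an orphan receptor with constitutive coupling to cAMP that marks D2-type neurons, had 2.63 (6.19 CPM), at percentile 11.7, with 1496 genes of the table below it. Of the 9 genes it therefore rested on the fewest reads.

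The 5 effector genes were all above the median gene and summed to 546.7 CPM. *Adcy5*, the main adenylyl cyclase of the striatum, stood at an average log2 CPM of 7.64 (199.8 CPM), at percentile 93.0, and 894 genes of the table had a higher value. *Ppp1r1b* encodes DARPP-32, which inhibits protein phosphatase 1 once protein kinase A has phosphorylated it, and had 7.07 (134.5 CPM), at percentile 87.8. *Rasd2* encodes Rhes, a small GTP-binding protein abundant in the striatum, and had 6.76 (108.7 CPM), at percentile 84.0. *Pde10a*, a phosphodiesterase that breaks down cAMP and cyclic GMP, had 5.96 (62.3 CPM), at percentile 70.8. *Rgs9*, which speeds the shut-off of G proteins at dopamine receptors, had 5.37 (41.4 CPM), at percentile 59.0. *Adcy5*, *Ppp1r1b* and *Rasd2* alone accounted for 70.3% of the reads of the 9 genes.

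**Figure D2:**
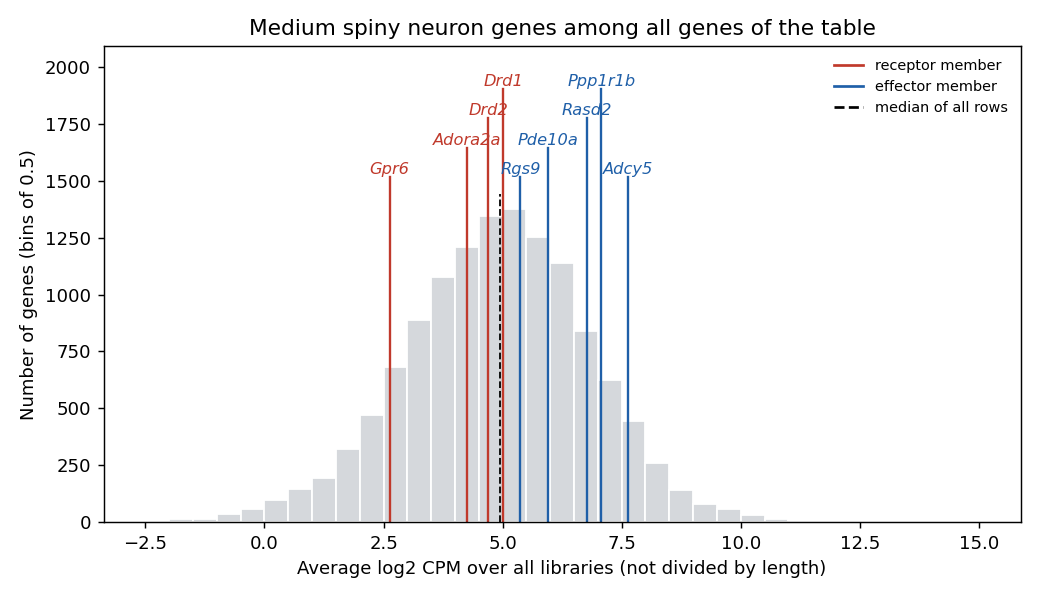
Histogram of the average log2 CPM of all 12828 genes of the table (x axis in bins of 0.5, y axis the number of genes). Each of the 9 genes has a vertical line, red for receptors and blue for effector genes, and a dashed line marks the median of 4.94. The 5 blue lines lie to the right of the dashed line, and of the 4 red ones *Drd1* alone does.

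Beside their listed relatives, the 9 genes took very different shares of the reads of the family genes that were listed and found. Of 5 dopamine receptor genes, 3 were found, and *Drd1* took 53.2%, *Drd2* 42.8% and *Drd5* 4.02% of their 60.8 CPM. Of 4 adenosine receptor genes, 3 were found, and *Adora2a* took 14.7% of the reads, whereas *Adora1*, the widespread inhibitory A1 receptor, took 80.4%. *Gpr6* took 38.0% and *Gpr12* 41.5% of the 16.3 CPM of the 3 related orphan receptors, and *Gpr3* took the remaining 20.5%.

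*Adcy5* had the most reads of the 8 adenylyl cyclase genes found (of 9 listed), with 30.6% of 652.3 CPM, followed by *Adcy2* with 21.5% and *Adcy3* with 14.3%. *Rasd2* took 86.3% of the reads of the pair *Rasd1* and *Rasd2*. *Ppp1r1b* took 71.6% of those of the pair it forms with *Ppp1r1a*, the gene of inhibitor 1. *Pde10a* was the fourth of the 10 phosphodiesterase genes listed, with 8.72% of their 714.1 CPM, after *Pde2a* (35.3%), *Pde1b* (16.6%) and *Pde4b* (10.1%). Phosphodiesterase genes outside the list were not looked up, so this is not a rank or share within the whole family. *Rgs9* had the fewest reads of the 3 R7-family regulators found (of 4 listed), 25.0% against 48.2% for *Rgs7* and 26.8% for *Rgs6*. All these shares are of reads per gene, so genes with longer transcripts weigh more in them.

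**Figure D3:**
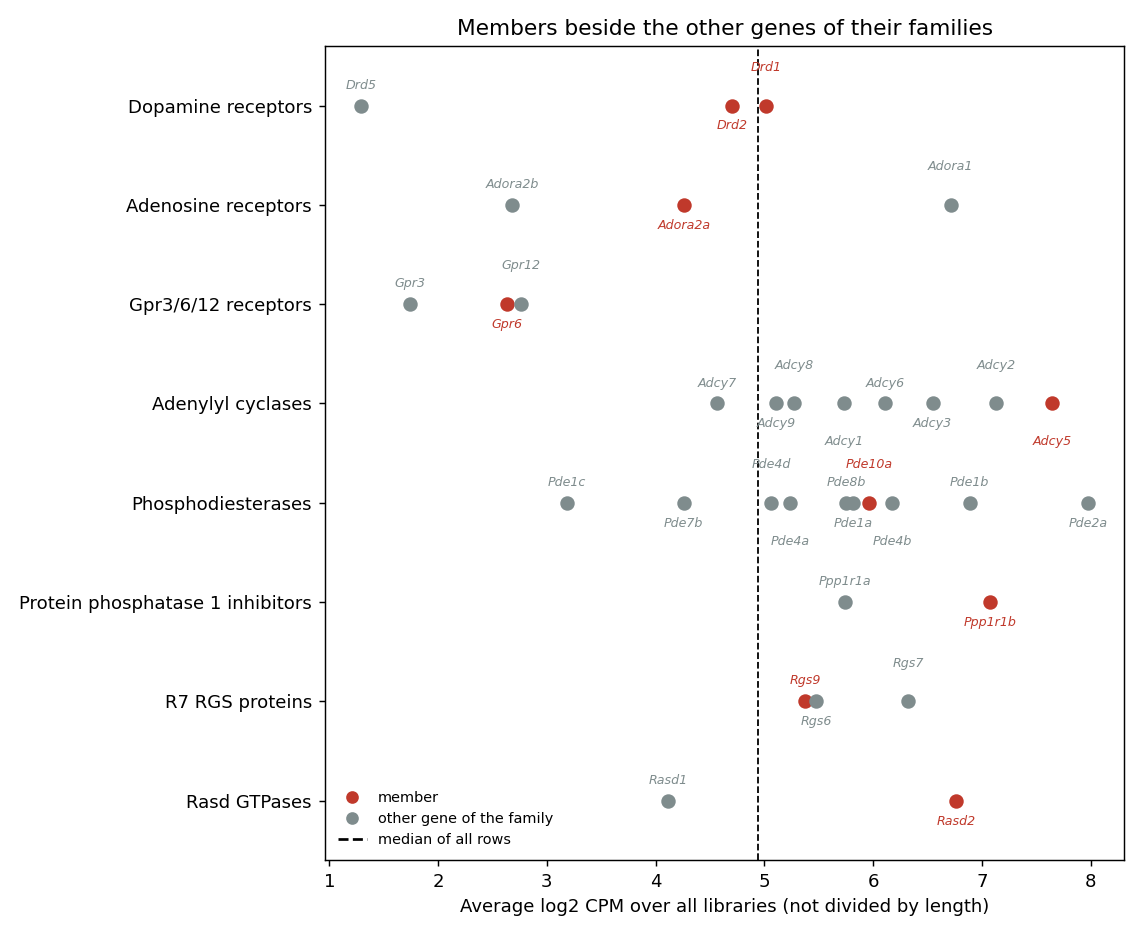
Average log2 CPM (x axis) of the 9 genes, in red, and of the other listed genes found in their 8 families, in grey. Each line is 1 family, and a dashed line marks the median of all genes. *Adcy5*, *Ppp1r1b*, *Rasd2* and *Drd1* are the rightmost points of their lines, whereas *Rgs9* is the leftmost of its line.

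The other genes of dopamine and cAMP signaling were also well covered. Of 70 genes listed, 62 were found in 63 rows, and 50 of these rows were above the median gene. Without the 9 genes, 44 of 54 rows were above it, with a median average log2 CPM of 6.62. The highest values were those of *Gnas*, the stimulatory G protein alpha subunit, at 10.09 in 1 of its 2 rows, *Gnb1* at 8.92 and *Ppp1cb* at 8.81. *Gnal*, the related alpha subunit that couples *Drd1* and *Adora2a* receptors to adenylyl cyclase in the striatum, had 7.19, and its partner *Gng7* had 7.05. The lowest were *Drd5* at 1.29 and *Gpr3* at 1.74.

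The label of the 9 genes was set beside markers of the cell types and regions that a dissection at this level could hold. All 19 listed markers shared by medium spiny neurons were found, 15 of them above the median gene. Without the 5 of these that are among the 9 genes, 10 of 14 were above it, with a median average log2 CPM of 6.21, from *Arpp21* at 7.56 down to *Rarb* at 3.96. Of the D1-type markers, 8 of 8 were found with a median of 4.51, the highest being *Sfxn1* at 6.79 and *Pdyn*, the prodynorphin gene, at 6.61, and the lowest *Eya1* at 2.67. Of the D2-type markers, 7 of 8 were found with a median of 4.26, from *Penk*, the proenkephalin gene, at 7.68 to *Sp9* at 1.93. The D1-type median includes *Drd1*, and the D2-type median includes *Drd2*, *Adora2a* and *Gpr6*. Without the 9 genes, 3 of 7 D1-type markers and 2 of 4 D2-type markers were above the median gene. The D2-type median was then 5.26, above that of all genes rather than below it. *Penk*, *Pdyn* and *Tac1* are also neuropeptide genes of the hypothalamus.

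Markers of the ARC itself and of other regions were present as well. Of 16 genes listed as ARC markers, 14 were found, with a summed 262.6 CPM and a median of 3.83. Of these, 3 were above the median gene: *Cartpt* at 6.02, the dopamine transporter gene *Slc6a3* at 5.48 and *Th*, the rate-limiting enzyme of dopamine synthesis, at 5.20. The lowest were *Kiss1* at 0.08, *Ghrh* at 1.02 and *Agrp* at 1.42. Striatal interneuron markers (6 of 8 found) had a median of 4.92, cortical and hippocampal markers (7 of 10) one of 3.34 and thalamic markers (7 of 7) one of 4.79. The highest cortical and hippocampal marker was *Camk2a* at 8.44, and *Slc17a7*, the vesicular glutamate transporter typical of cortex, had 7.17. Only 3 of the 7 cortical and hippocampal markers found were above the median gene, and the lowest was *Fezf2* at 1.96. *Slc17a6*, the form typical of thalamus and hypothalamus, had 8.09. Of the 7 thalamic markers, likewise 3 were above the median gene, and the lowest was *Gbx2* at 0.49. *Isl1* stood on both the D1-type and the ARC list, with 16.0 CPM. Reads of genes on the striatal, cortical, thalamic and ARC lists were all present in the averaged libraries. From which region these reads came cannot be told from the values. How they were spread over the dams or the diets was not tested.

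**Figure D4:**
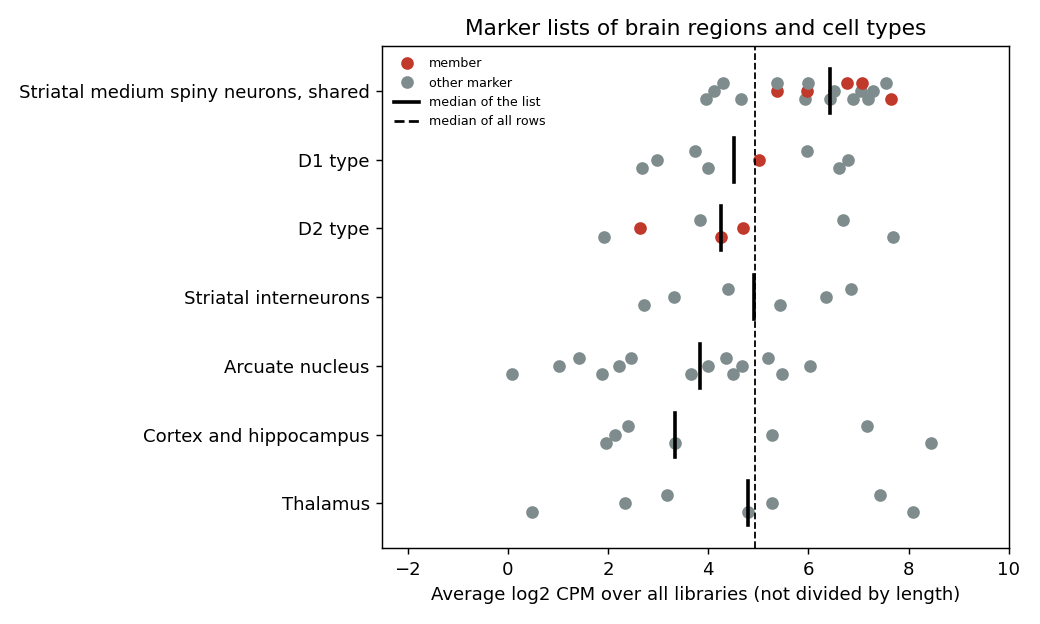
Average log2 CPM (x axis) of each marker found, 1 list per line, with the 9 genes in red, other markers in grey, a black bar at the median of each list and a dashed line at the median of all genes. With the 9 genes included, the bar of the shared medium spiny markers, at 6.43, is the only one to the right of the dashed line. The bar of the striatal interneuron markers, at 4.92, lies just to its left. Without the 9 genes the D2-type median is 5.26, which is also to the right of the line.

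*Drd2* was also assayed by qRT-PCR, the only gene of the list with primers. The forward primer, shown as the oligo that assay used, had 21 bases. The reverse primer is not shown because the direction in which it was listed was unclear, and the primer was not placed on the 2 RefSeq transcript models of *Drd2*.
Drd2 forward primer: gttgtctacctggaggtggtg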

How the data were processed

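Poly-A RNA from the ARC of 10 dams (5 on 5X-FA and 5 on 5X-MTHF, as the labels give them) was sequenced in read pairs. As the submitters' processing notes and the paper's methods state, the authors trimmed reads with Trim Galore 0.5.0, aligned them with STAR 2.6.0c to Rnor_6.0 with Ensembl gene models and counted reads per gene with HTSeq 0.6.1p2. The authors deposited for each gene an average log2 CPM over all libraries, on a log2 scale, which was the only value used. The tool behind it was not given in the sources used here. Linear CPM, computed from it, summed to 1002152 over the 12828 genes, of which 12383 were protein-coding. The same table holds the authors' own comparison of the diets (log2 fold change, F, p-value and FDR), which was not used. It also has 10 columns of per-sample values headed only by a number, which could not be tied to a dam or a diet by name and were left out of every step. The tests between diets that had been planned could not be run.

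The percentile of a gene is the percentage of genes at or below its value. Gene lists were written by hand and matched by symbol, with 22 repeated symbols kept as separate rows, and a gene not found is not analysed here. The 9 genes and all lists were chosen with earlier results of these data known. The listed family members of the 9 genes that were found are all named in the plot of the families. The text names those with the most reads in the larger families. From the other lists up to 3 genes with the highest or lowest value were named. The neighbours *Stard3*, *Specc1l* and AABR07030647.1 and the markers *Gnal*, *Gng7*, *Pdyn*, *Tac1*, *Isl1*, *Slc17a6* and *Slc17a7* were named after their values were seen. Start windows (250 bases before and 50 after a start) were those of RefSeq on GRCr8, and motifs were chosen after the sequences were seen. Gene positions are from the deposited table on Rnor_6.0. The percentile and the motif search were tested on simulated data. Calculations ran in Python 3.11.15 (pandas 2.3.3, numpy 2.4.6, scipy 1.17.1) and figures were drawn with matplotlib 3.10.9.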

Additional observations from a re-analysis of the deposited data

How the results depend on the processing

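The median percentile of the 9 genes among all genes of the table was 59.0. It was 57.8 among the 12383 protein-coding genes and 57.8 among the 12462 genes whose log2 CPM was 1 or more. Each of the 9 genes moved down under both settings, by at most 1.75 and 2.59 points respectively. Both settings only drop other genes, so the order of the 9 had to stay the same. The lowest of the 9 had a log2 CPM of 2.63, so the second setting could only lower their percentiles. With all 300 bases of each start window searched, an alternative chosen after seeing the data, the GC box was found in 6 of 8 windows in place of 5, and the number of windows with each of the other 4 motifs stayed the same. No paired analysis was possible because the per-sample columns carry no name that matches a dam. For the same reason the planned differences between diets were not run, nor their alternatives in pseudocount, filter, scaling, left-out dam, permutation or count model. Depth and the spread between dams are unknown from the values used, so no interval is given.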
